A study of Mus musculus with 59 samples.

Results

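The livers of 9 mice that drank water with 100 ppb arsenite for 5 weeks were compared by diet, 5 on LRD-5001 and 4 on AIN-76A. They are the 9 arrays of 59 in the series whose titles name 100 ppb in drinking water, and every non-control probe set was compared. The mice were C57BL/6 males that, at 6 weeks of age, began 2 weeks on their diet before sodium arsenite was put in the water. No other agent was given, and the labels name no genetic modification. LRD-5001 is a chow made of grains and other natural feedstuffs, whereas AIN-76A is put together from refined components such as casein, sugar and oil. The diets' own arsenic content is not given in the sources used here, so 100 ppb is what was added, not the total intake. The fit also used the 30 arrays of the other 5-week groups, 5 per diet with no added arsenite (controls), with 10 ppb in water, or with 10 ppb in food. Samples within a group carry the label of biological replicates, and p-values measure the spread between them.

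Inorganic arsenite enters hepatocytes through water and sugar channels and is methylated there, with methyl groups from S-adenosylmethionine and with glutathione as a partner. It binds sulfhydryl groups, and cells answer it mainly through Nrf2, which induces glutathione and conjugating enzymes, and through metallothioneins and heme oxygenase. Chow carries plant compounds that purified diets lack, and the liver's cytochrome P450 enzymes, conjugating enzymes and transporters are the classic responders to such compounds.

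Values are log2 expression per probe set, normalised by the authors with RMA, so a difference of 1 is a 2-fold change. All differences are LRD-5001 minus AIN-76A, with the standard error (SE) of limma and p-values adjusted over all 45037 probe sets by Benjamini-Hochberg; a gene was called at an adjusted p under 0.05. Each of 18193 genes stands for its brightest probe set. The upper quartiles of the arrays ran from 3.97 to 4.21 on LRD-5001 and from 3.85 to 4.14 on AIN-76A, with a difference of 0.124 (two-sided exact permutation p = 0.135, against a smallest possible p of 0.0159). All 9 hepatocyte markers lay above the arrays' mean upper quartile, from Hnf4a at 10.41 to Alb at 13.69. In bulk liver, fewer cells of a type and less RNA per cell cannot be told apart.

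The 4 AIN-76A livers were unlike each other. Their within-group SD exceeded 1 in 449 genes (2.47%), against 24 (0.132%) in the 5 LRD-5001 livers and 22 to 172 genes in the 6 other groups of the fit. Arrays B and C carried high levels of acute phase, glucocorticoid-responsive and metallothionein genes and low levels of many drug-metabolising enzymes. Array D was intermediate, and array A lay near the LRD-5001 arrays for many of these genes. In the fit each probe set has a single spread, estimated over 39 arrays, and the larger spread of these 4 enters it only in part. Each call below that ended when 1 of the 9 arrays was left out is given with that array. Values against AIN-76A arrays A and D alone leave out B and C, a choice made after the data were seen. A and D had the lowest upper quartiles of the 4, 3.98 and 3.85, against 4.08 and 4.14 for B and C. Array D also scored lowest of the 4 on the first principal component.

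In all, 924 probe sets (2.05%) were called, 643 higher (1.43%) and 281 lower (0.624%) on LRD-5001. By gene, 406 (2.23%) were higher and 161 (0.885%) lower. At an unadjusted p under 0.05 there were 6050 probe sets. The 9 arrays did not overlap between the diets for 1935 probe sets (4.3%). The count was 549 with the replicate letter as a block, 1409 with array weights and 647 with all 59 arrays in the fit, which ended 38 of the 100 calls of genes named here. It was 2043 with the arrays lowest on the first principal component of each group as a block, and 2178 without them. It fell to 38 when only the 9 arrays compared entered the fit, of which 35 were among the 924. It was 247 without AIN-76A array B, 1789 without AIN-76A array A and 498 without LRD-5001 array A. With arrays B and C of AIN-76A both left out, 545 were called, 43.9% of them higher, and 156 were among the 924. After a further quantile normalisation 57.6% of the calls were higher on LRD-5001, against 69.6% without it. In total 179 probe sets (94 genes higher and 25 lower) stayed called whichever of the 9 arrays was left out. Of the genes named below, Gsta2, Clec2h, Dbp, Cyp26a1, Abcc3, Slco1a4, Cyp2c55, Cth, Apoa4, Nfil3 and Apoc2 were also called with only the 9 arrays in the fit. The other calls named below were not.

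**Figure D1:**
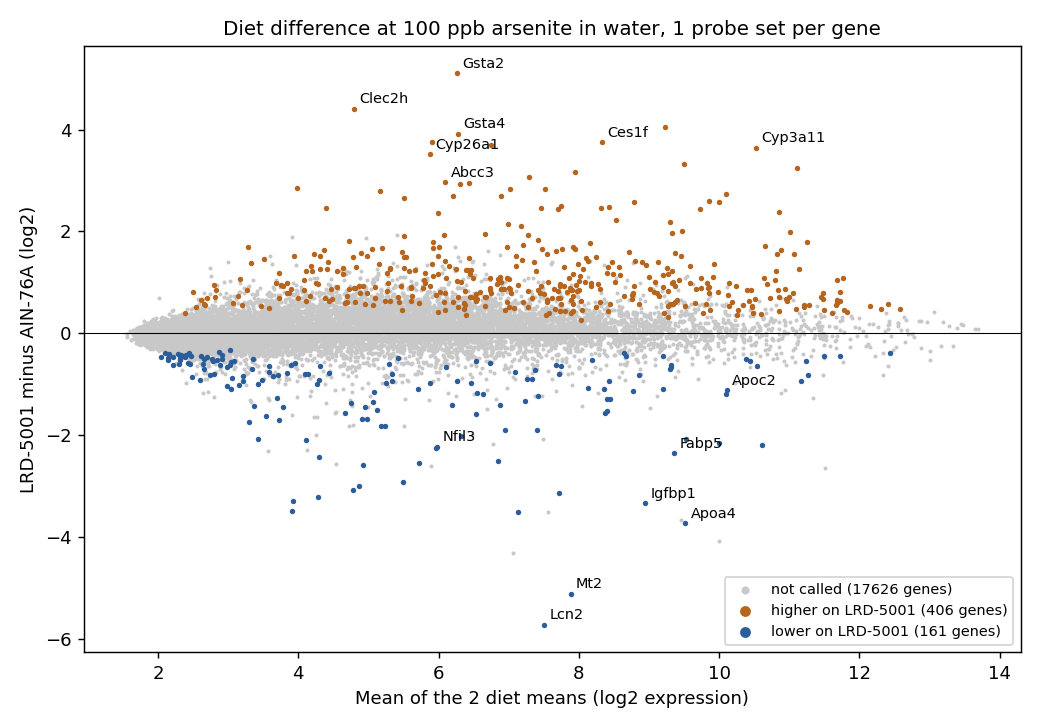
Diet difference (LRD-5001 minus AIN-76A, log2, vertical axis) against the mean of both diet means (log2 expression, horizontal axis) for 18193 genes at 100 ppb arsenite in water, 1 point per gene. Orange points are the 406 genes called higher and blue points the 161 called lower; Gsta2 stands highest and Lcn2 lowest.

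Gsta2, a glutathione transferase, had the largest rise of any called gene; these enzymes attach glutathione to reactive compounds. Of 29 measured genes of glutathione and Nrf2 targets, 14 rose on LRD-5001 and 1, Hmox1, fell, with a median difference of 0.74 against -0.01 over all genes. Leaving out AIN-76A array B left 7 rises and no fall, and leaving out B and C left 5 rises. The Nrf2 gene itself, Nfe2l2, differed by 0.29 (adjusted p = 0.803) and its inhibitor Keap1 by -0.01 (adjusted p = 0.986).

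Gsta2, an alpha-class transferase, measured 9.46, 8.82, 9.02, 8.80 and 7.94 on LRD-5001 arrays A, B, D, E and F. It measured 5.01, 2.92, 2.48 and 4.42 on AIN-76A arrays A to D. Every LRD-5001 array lay well above every AIN-76A array, and the difference of 5.10 (SE 0.55, adjusted p = 5.63e-07, limma) exceeded the spread within either diet. Gsta4, which conjugates products of lipid peroxidation, measured 8.71, 8.02, 8.37, 8.02 and 8.04 on LRD-5001. On AIN-76A it measured 6.40, 3.0, 2.28 and 5.59, with arrays B and C far below A and D. The difference was 3.91 (SE 0.50, adjusted p = 1.2e-05), and 2.24 (adjusted p = 0.00306) against AIN-76A arrays A and D alone. The mu-class transferases Gstm3 and Gstm1 were higher by 2.46 (SE 0.31, adjusted p = 1.27e-05) and 1.72 (SE 0.27, adjusted p = 0.000255), also without overlap. Family members are close in sequence, and probes of 1 transferase may also detect another.

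Conjugation to sugar and sulfate followed the same direction. Of 19 measured genes of glucuronidation and sulfation, 11 rose and none fell, with a median of 0.87; without AIN-76A array B 5 rose. Ugt2b35, a glucuronosyltransferase, measured 10.64, 10.35, 10.25, 10.83 and 10.33 on LRD-5001 and 9.37, 7.64, 8.07 and 8.77 on AIN-76A. Its difference was 2.01 (SE 0.22, adjusted p = 7.8e-07), with no overlap. Ugdh makes UDP-glucuronate, the sugar donor of these enzymes, and measured 9.55, 9.52, 9.27, 9.48 and 9.72 on LRD-5001. On AIN-76A it measured 8.31, 8.97, 7.12 and 7.92, where array B was the highest, and the difference was 1.42 (SE 0.21, adjusted p = 0.000116).

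The Ugdh promoter is shown because, of the called conjugation genes named here, it holds 2 copies of the core of the antioxidant response element, to which Nrf2 binds. The motif searched was TGACNNNGC on both strands, within the 250 bases before the annotated start in RefSeq on GRCm38.p6 (chr5:65435843-65436092, minus strand). The capitals mark the matches, 132 and 94 bases before the start.
Ugdh: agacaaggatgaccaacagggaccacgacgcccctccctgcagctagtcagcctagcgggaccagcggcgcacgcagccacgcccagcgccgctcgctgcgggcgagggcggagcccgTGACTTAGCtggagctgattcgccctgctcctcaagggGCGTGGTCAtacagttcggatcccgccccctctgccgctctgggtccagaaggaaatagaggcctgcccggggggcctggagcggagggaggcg
Of all 32851 RefSeq promoter windows of this length 10.2% held the motif. Among genes higher on LRD-5001 it was found in 47 of 333 with a window (14.1%), and among all measured genes in 13.5% of 14452. By list, it was found in 1 of 18 windows for glucuronidation and sulfation, that of Ugdh, and in 6 of 24 for glutathione and Nrf2 targets. For cytochrome P450 enzymes it was 0 of 22, and for other drug-metabolising enzymes 0 of 18. A match is a stretch of letters, and no binding was measured.

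Cytochrome P450 enzymes of families 1 to 3, which oxidise drugs, steroids and plant compounds, rose in 12 of 24 measured genes and fell in none, with a median of 0.53. The count was 9 without AIN-76A array B, and with arrays B and C both left out 3 did. Cyp3a11, the main drug-oxidising P450 of mouse liver, measured 12.56, 12.18, 12.46, 12.55 and 12 on LRD-5001. On AIN-76A it measured 11.21, 8.49, 5.49 and 9.62, so the diets did not overlap but the AIN-76A arrays spanned more than the difference of 3.65 (SE 0.67, adjusted p = 0.00179). Against AIN-76A arrays A and D alone the difference was 1.94 (adjusted p = 0.114).

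Cyp2c55 measured 5.73, 5.4, 5.78, 5.65 and 5.53 on LRD-5001 and 3.52, 2.99, 2.89 and 3.22 on AIN-76A. Both groups were tight, and the difference was 2.46 (SE 0.35, adjusted p = 7.95e-05). Cyp2c37, another member of this subfamily, was higher by 3.16 (SE 0.43, adjusted p = 3.47e-05) and Cyp2c50 by 2.38 (SE 0.36, adjusted p = 0.00013). Cyp1a2, which oxidises aromatic amines and caffeine, measured 11.35 to 11.68 on LRD-5001 and 11.08, 6.67, 6.65 and 10.52 on AIN-76A. Its difference of 2.73 (SE 0.49, adjusted p = 0.00155) shrank to 0.65 (adjusted p = 0.0756) against arrays A and D alone.

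Retinoid genes gave 4 rises among 16 measured, Cyp26a1, Rdh16, Dhrs3 and Rarres2, and no fall. Cyp26a1 breaks down retinoic acid and is induced by it. It measured 7.77, 7.37, 7.45, 8.02 and 7.58 on LRD-5001 and 4.06, 3.15, 4.06 and 5.2 on AIN-76A. The groups lay far apart, with a difference of 3.52 (SE 0.55, adjusted p = 0.000291). The other calls did not hold: Dhrs3 ended without AIN-76A array B (adjusted p = 0.0872), and Rarres2 without AIN-76A B or C (adjusted p = 0.1 and 0.0634). Rdh16 ended without AIN-76A B or C or LRD-5001 A, B, D or F (adjusted p 0.0586 to 0.256).

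Other drug-metabolising enzymes gave the largest share of rises, 16 of 23 measured and no fall, with a median of 0.98. Leaving out AIN-76A array B left 8, and with arrays B and C both left out 5 did. Ces1g and Ces1f are carboxylesterases, which cleave ester bonds in drugs and lipids. Ces1g measured 8.72, 8.83, 8.85, 8.45 and 8.11 on LRD-5001 and 6.73, 3.29, 2.92 and 6.68 on AIN-76A, with a difference of 3.69 (SE 0.53, adjusted p = 8.51e-05). Ces1f measured 10.02 to 10.41 on LRD-5001 and 9.97, 3.29, 3.93 and 8.60 on AIN-76A, with a difference of 3.75 (SE 0.72, adjusted p = 0.00302). For both genes arrays A and D of AIN-76A lay closer to LRD-5001 than arrays B and C did; against A and D alone Ces1g differed by 1.89 (adjusted p = 0.026) and Ces1f by 0.91 (adjusted p = 0.266). Ces2a was higher by 2.19 (SE 0.31, adjusted p = 6.52e-05) and the aldehyde oxidase Aox3 by 2.58 (SE 0.41, adjusted p = 0.00033).

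Transporters of drugs and bile acids gave 8 rises among 19 measured and no fall, and all 19 differences were above 0. Abcc3 and Slco1a4 were the 2 that stayed called without AIN-76A array B. Abcc3, which pumps conjugates from hepatocytes back to blood, measured 7.62, 8.14, 8.30, 6.72 and 7.10 on LRD-5001. On AIN-76A it measured 4.82, 3.96, 4.85 and 4.82, and the difference was 2.96 (SE 0.34, adjusted p = 1.69e-06). Slco1a4, an uptake transporter of organic anions, measured 7.13, 6.90, 7.10, 6.88 and 6.17 on LRD-5001 and 5.15, 3.95, 3.5 and 4.13 on AIN-76A, with a difference of 2.65 (SE 0.45, adjusted p = 0.000629). Neither gene overlapped between the diets.

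A list of receptors that sense foreign compounds, which also held hormone receptors and other factors, gave 1 rise, Nr3c1, and 1 fall, Hnf4a, among 14 measured. The glucocorticoid receptor Nr3c1 measured 8.21, 7.67, 7.99, 8.17 and 8.18 on LRD-5001 and 7.60, 7.28, 7.10 and 7.46 on AIN-76A, with a difference of 0.69 (SE 0.16, adjusted p = 0.019). That call ended without AIN-76A B or C or LRD-5001 A (adjusted p = 0.0832, 0.0789 and 0.0596). Hnf4a, a master factor of hepatocytes, was lower by a difference of -0.55 (SE 0.14, adjusted p = 0.0271), which ended without AIN-76A B or D or LRD-5001 A, D or E (adjusted p 0.0534 to 0.174). The other probe sets of both genes had the same sign but did not pass (adjusted p 0.0998 to 0.748 for Nr3c1, 0.581 to 0.858 for Hnf4a). The pregnane receptor Nr1i2 differed by 0.47 (adjusted p = 0.475), the constitutive androstane receptor Nr1i3 by 0.59 (adjusted p = 0.476) and the aryl hydrocarbon receptor Ahr by -0.74 (adjusted p = 0.356).

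**Figure D2:**
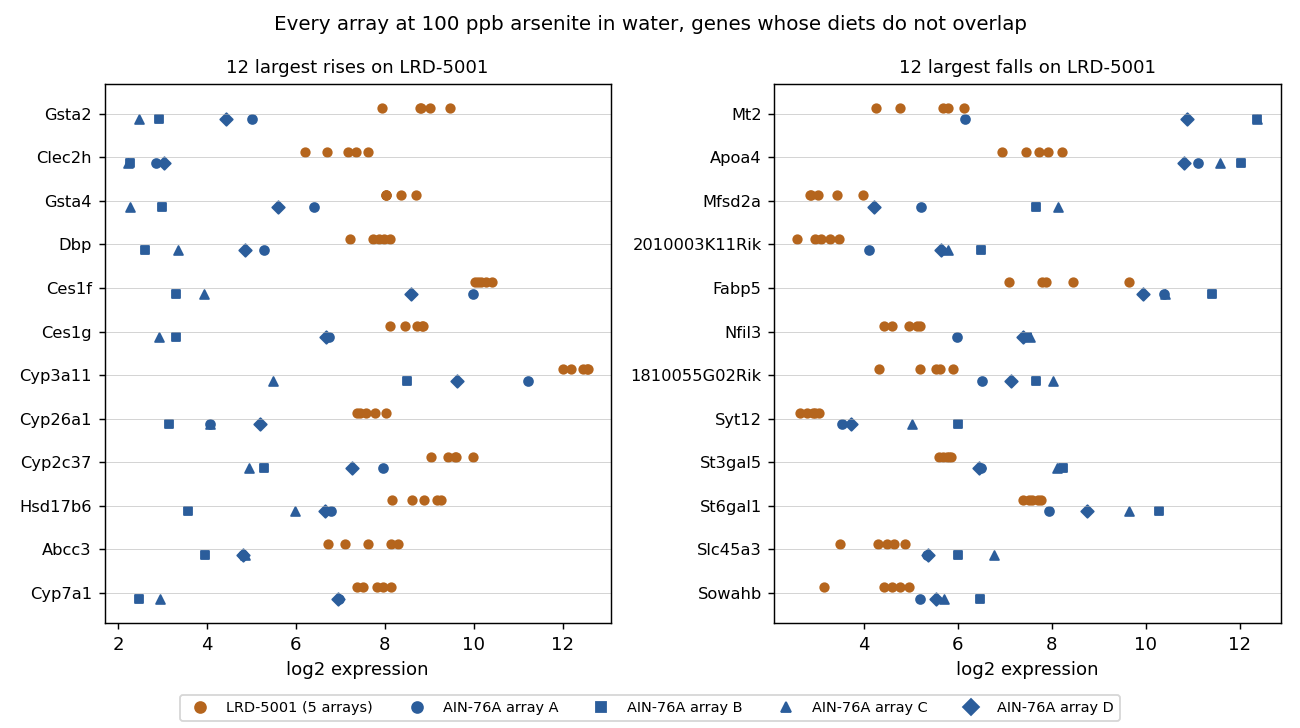
Log2 expression (horizontal axis) on each of the 9 arrays for the 12 largest rises (left) and 12 largest falls (right) among called genes whose diets did not overlap; orange circles are the 5 LRD-5001 arrays and blue marks the AIN-76A arrays A to D. For Ces1f, Cyp3a11, Mt2 and others the blue marks spread widely, with arrays B and C farthest from LRD-5001, whereas for Clec2h, Abcc3 and Apoa4 they lie together.

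Clec2h, a C-type lectin-like gene, measured 7.16, 6.20, 7.62, 7.34 and 6.69 on LRD-5001 and 2.85, 2.28, 2.22 and 3.02 on AIN-76A. Its difference of 4.41 (SE 0.34, adjusted p = 8.75e-11) was 4.07 (adjusted p = 5.8e-07) against AIN-76A arrays A and D alone. Hsd17b6, a steroid dehydrogenase, measured 9.17, 8.62, 9.27, 8.88 and 8.17 on LRD-5001 and 6.79, 3.57, 5.97 and 6.66 on AIN-76A, with a difference of 3.07 (SE 0.55, adjusted p = 0.0015). For both genes all 5 LRD-5001 arrays lay above all 4 AIN-76A arrays.

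Genes that take up and methylate arsenic gave 3 rises among 16 measured, with a median of 0.11. Gsto1, an omega-class transferase that reduces methylated arsenic, measured 8.69, 8.61, 8.58, 8.57 and 8.40 on LRD-5001 and 7.87, 7.07, 6.72 and 8.15 on AIN-76A. The diets did not overlap, and the difference was 1.12 (SE 0.17, adjusted p = 0.000169). Gnmt, which uses up S-adenosylmethionine by methylating glycine, measured 12.62 to 12.76 on LRD-5001 and 12.49, 12.13, 11.60 and 12.26 on AIN-76A, with a difference of 0.58 (SE 0.12, adjusted p = 0.00613). Slc2a2, the hepatic glucose transporter, was higher by 1.96 (SE 0.44, adjusted p = 0.0122), a call that ended without AIN-76A array B (adjusted p = 0.103).

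As3mt, the enzyme that methylates arsenic, was chosen for description after its values were seen. It measured 6.29, 6.32, 5.41, 5.96 and 6.98 on LRD-5001 and 5.66, 7.94, 8.07 and 6.27 on AIN-76A. Arrays B and C of AIN-76A lay above every other array, the groups overlapped, and the difference of -0.79 (SE 0.30, adjusted p = 0.189) did not pass. The arsenite channel Aqp9 differed by 0.36 (adjusted p = 0.185).

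Sulfur amino acid genes gave 3 rises among 16 measured, Ethe1, Cth and Gamt, and no fall. Cth makes cysteine, a building block of glutathione, from cystathionine. It measured 11.44, 11.19, 11.19, 10.83 and 11.24 on LRD-5001 and 10.19, 10.40, 10.02 and 9.79 on AIN-76A, without overlap, and the difference was 1.08 (SE 0.21, adjusted p = 0.00303). Ethe1, which oxidises sulfide in mitochondria, was higher by 1.41 (SE 0.26, adjusted p = 0.00175). The call of Gamt ended without AIN-76A B or C or LRD-5001 A, B, D or F (adjusted p 0.0628 to 0.257).

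Metallothioneins, small proteins that bind zinc, cadmium and arsenite, held the largest fall among genes whose diets did not overlap. Mt2 measured 4.26, 5.80, 5.68, 4.77 and 6.13 on LRD-5001. On AIN-76A it measured 6.16, 12.36, 12.38 and 10.87. Array A lay just above the highest LRD-5001 array and the other 3 far above, for a difference of -5.12 (SE 1.24, adjusted p = 0.0198). The call ended without AIN-76A B or C or LRD-5001 A (adjusted p = 0.116, 0.081 and 0.0602). Mt1, named after its values were seen, measured 6.76, 8.76, 8.11, 6.38 and 8.13 on LRD-5001 and 7.26, 12.88, 12.97 and 12.06 on AIN-76A. Its array A lay among the LRD-5001 arrays, and the difference of -3.67 (SE 1.11, adjusted p = 0.0778) did not pass. A second, much dimmer Mt1 probe set did pass in the same direction, with a difference of -1.895 (SE 0.43, adjusted p = 0.0125).

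The promoters of the pair are shown because both genes were high on the same AIN-76A arrays, B, C and D. The motif is the core of the metal response element, bound by the zinc sensor Mtf1, searched as TGCACNC and TGCGCNC on both strands in the same window. This motif was added after the values were seen. The Mt2 window (chr8:94172368-94172617, plus strand) held 3 matches and the Mt1 window (chr8:94178839-94179088, plus strand) 1, in capitals; all are from RefSeq on GRCm38.p6.
Mt2: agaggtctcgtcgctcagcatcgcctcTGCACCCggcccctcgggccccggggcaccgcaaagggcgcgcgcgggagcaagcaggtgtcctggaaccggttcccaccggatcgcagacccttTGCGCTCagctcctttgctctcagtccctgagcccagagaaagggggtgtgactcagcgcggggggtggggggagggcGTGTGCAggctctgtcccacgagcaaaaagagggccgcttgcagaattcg
Mt1: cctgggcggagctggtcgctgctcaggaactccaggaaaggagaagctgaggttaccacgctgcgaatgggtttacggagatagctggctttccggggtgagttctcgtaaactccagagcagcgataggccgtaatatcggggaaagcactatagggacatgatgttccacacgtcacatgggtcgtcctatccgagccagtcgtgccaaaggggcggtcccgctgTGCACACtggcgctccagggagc
In Mt2 the matches began 223, 128 and 50 bases before the start, and in Mt1 23 bases before it. Bases after the annotated start were not searched, so the counts of both genes depend on where that start lies. The Mt2 window also held 1 match to the antioxidant response element core, 79 bases before the start, which did not overlap these. One form or the other was found in 21.4% of all 32851 windows and in 30.6% of 14452 measured genes with a window. Among genes lower on LRD-5001, the direction of Mt2, it was found in 29 of 119 (24.4%), and among genes higher in 99 of 333 (29.7%). Of 16 windows of heat shock and metal response genes, those of Mt1 and Mt2 among them, 8 held it (50%). Other lists ran from 0 of 9 windows for neutrophils to 11 of 19 (57.9%) for glucose genes and 10 of 17 (58.8%) for clock genes.

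Of 21 measured genes of heat shock and metal response, 4 fell, Mt2, Slc39a14, Hmox1 and Hspb8, and 1 rose, Slc39a4. Slc39a14, a zinc and iron importer that the acute phase induces, measured 7.57, 7.68, 7.37, 7.59 and 7.99 on LRD-5001 and 7.87, 10.34, 9.71 and 8.77 on AIN-76A. Array A of AIN-76A lay within the LRD-5001 range, and the difference was -1.53 (SE 0.28, adjusted p = 0.002). Slc39a4, another zinc importer, was higher by 1.08 (SE 0.23, adjusted p = 0.0082) with no overlap. Hmox1, which degrades heme and is a marker of arsenite stress, measured 4.17, 4.79, 4.13, 3.65 and 4.39 on LRD-5001 and 4.41, 6.93, 5.30 and 6.05 on AIN-76A. Its difference was -1.45 (SE 0.32, adjusted p = 0.0108), and without AIN-76A array B the calls of Hmox1 (adjusted p = 0.115) and Hspb8 (adjusted p = 0.0685) ended. The inducible heat shock gene Hspa1b differed by -0.79 (adjusted p = 0.236). None of 23 genes of the unfolded protein response was called, though 22 differences were below 0 (median -0.34).

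Acute phase proteins, which the liver secretes in inflammation, gave 6 falls among 25 measured and no rise, and all 25 differences were below 0, with a median of -0.81. The called genes were Lcn2, Apcs, Serpina3n, Cd14, Steap4 and Il1rn. None of the 6 stayed called without AIN-76A array B, and none without array C. The mean level of the 25 genes ran from 9.09 to 10.04 on LRD-5001 and was 9.36, 11.96, 11.66 and 10.67 on AIN-76A arrays A to D. Lcn2, an iron-scavenging secreted protein, measured 2.39, 5.2, 4.29, 3.52 and 7.80 on LRD-5001 and 6.51, 12.5, 12.42 and 10.03 on AIN-76A. Array F of LRD-5001 lay above array A of AIN-76A, and the difference was -5.72 (SE 1.55, adjusted p = 0.0417). That call ended without AIN-76A B, C or D or LRD-5001 A, B, D or E (adjusted p 0.0697 to 0.169). Serpina3n, a protease inhibitor, measured 8.37 to 9.55 on LRD-5001 and 8.64, 12.71, 12.34 and 10.65 on AIN-76A, with a difference of -2.16 (SE 0.55, adjusted p = 0.0291). Its call ended without AIN-76A B or C or LRD-5001 A, B, D or E (adjusted p 0.0543 to 0.188). Apcs ended without the same 6 arrays (adjusted p 0.0699 to 0.218), Il1rn without AIN-76A B or C or LRD-5001 A, B, E or F (adjusted p 0.0695 to 0.23), Cd14 without AIN-76A B or C or any LRD-5001 array (adjusted p 0.0596 to 0.3), and Steap4 without AIN-76A B or C (adjusted p = 0.163 and 0.0936).

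Cytokine signalling gave 3 falls among 23 measured, Cxcl1, Il1r1 and Icam1, and 22 differences were below 0. Cxcl1, which attracts neutrophils, measured 4.41, 6.99, 4.63, 5.63 and 5.27 on LRD-5001 and 4.65, 10.15, 10.34 and 10.42 on AIN-76A. AIN-76A arrays B, C and D lay far above all others, and array A lay among LRD-5001. The difference was -3.5 (SE 0.95, adjusted p = 0.0422), and only the fits without AIN-76A A or LRD-5001 B kept the call (adjusted p 0.0635 to 0.168 in the others). Il1r1, the interleukin 1 receptor, differed by -1.90 (SE 0.40, adjusted p = 0.00674), a call that ended without AIN-76A array B (adjusted p = 0.081). Icam1 ended without AIN-76A B, C or D or LRD-5001 A, D or E (adjusted p 0.0532 to 0.177). None of 21 interferon-induced genes was called by its brightest probe set, and their median was -0.01, with 10 differences above 0 and 11 below. A second probe set of Ifi27 was called (-0.86, SE 0.21, adjusted p = 0.0203), whereas its brightest was not (-0.63, SE 0.19, adjusted p = 0.08). Against AIN-76A arrays A and D alone Ifi27 and Irf7 were called lower (adjusted p = 0.0244 and 0.0259).

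Neutrophil markers moved with these genes. Of 10 measured, 4 fell, Lcn2, S100a8, S100a9 and Ngp, and all 10 differences were below 0. Their mean level ran from 2.36 to 3.02 on LRD-5001 and was 2.93, 4.76, 4.62 and 3.90 on AIN-76A, while the granule marker Mpo had a mean of 2.15 over the 9 arrays. S100a8 measured 2.84, 3.15, 2.67, 2.24 and 2.5 on LRD-5001 and 2.15, 7.42, 7.67 and 6.35 on AIN-76A, with a difference of -3.21 (SE 0.67, adjusted p = 0.00612). Without AIN-76A array B the calls of S100a8 (adjusted p = 0.0643) and S100a9 (adjusted p = 0.0685) ended, and that of Ngp ended also without AIN-76A C or LRD-5001 A, B, D or E. The part of neutrophils in the inflammatory differences was not tested.

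Glucocorticoid targets gave 8 falls among 24 measured and no rise, with 21 differences below 0 and a median of -0.91. Lcn2, Mt2, Igfbp1 and Cdkn1a stand in other lists too. Without AIN-76A array B only Cdkn1a stayed called, and without array C 4 genes did. The mean level of the list ran from 5.55 to 6.18 on LRD-5001 and was 5.96, 8.28, 8.08 and 6.79 on AIN-76A. Cdkn1a, an inhibitor of the cell cycle, measured 3.83, 3.69, 3.60, 3.54 and 3.45 on LRD-5001 and 3.78, 8.42, 7.24 and 5.41 on AIN-76A. Array A lay within LRD-5001 and the rest above, and the difference was -2.59 (SE 0.48, adjusted p = 0.00179).

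Fkbp5, a chaperone of the glucocorticoid receptor and one of its most responsive targets, measured 4.76, 4.92, 4.52, 4.68 and 5.31 on LRD-5001 and 5.17, 8.82, 8.55 and 5.86 on AIN-76A. The difference was -2.26 (SE 0.45, adjusted p = 0.00405). Igfbp1, a fasting-induced binding protein, measured 5.84, 6.03, 6.77, 8.96 and 8.75 on LRD-5001 and 8.15, 12.17, 12.29 and 9.83 on AIN-76A, with a difference of -3.34 (SE 0.67, adjusted p = 0.0046). Arrays E and F of LRD-5001 lay above array A of AIN-76A. Without AIN-76A array B the calls of Fkbp5 (adjusted p = 0.0574), Igfbp1 (adjusted p = 0.0539) and Ddit4 (adjusted p = 0.123) ended, and that of Gadd45b ended without AIN-76A B or C (adjusted p = 0.0574 and 0.0603). Among 21 genes of the cell cycle and the p53 response Btg2 fell as well as Cdkn1a, a call that ended without AIN-76A B or C or LRD-5001 A (adjusted p 0.0579 to 0.147). The receptor's classical targets Tat and Tsc22d3 differed by -0.33 (adjusted p = 0.62) and -0.46 (adjusted p = 0.529).

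Genes listed for glucose production and glucose use gave 3 rises, Pdk2, Gpt and Mdh1, and 2 falls, Igfbp1 and Fbp1, among 23 measured. Fbp1, an enzyme of gluconeogenesis, differed by -0.38 (SE 0.08, adjusted p = 0.00572). The calls of Fbp1 (adjusted p = 0.0586) and Gpt (adjusted p = 0.0643) ended without AIN-76A array B. Pdk2 ended without AIN-76A B or D or LRD-5001 A, B, D or F (adjusted p 0.0567 to 0.239), and Mdh1 without AIN-76A B, C or D or LRD-5001 A, B, E or F (adjusted p 0.0528 to 0.174). The rate-setting enzymes of glucose production, Pck1 and G6pc, differed by -0.44 (adjusted p = 0.436) and 0.14 (adjusted p = 0.942).

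Amino acid breakdown and the urea cycle gave 5 rises among 23 measured, Otc, Hal, Prodh, Agxt and Tdo2, and no fall. Hal, which begins histidine breakdown, was higher by 1.01 (SE 0.16, adjusted p = 0.000378), without overlap and whichever array was left out. Otc, a urea cycle enzyme, ended without AIN-76A array B (adjusted p = 0.0522), Agxt without AIN-76A B or C or LRD-5001 B (adjusted p 0.0582 to 0.139) and Tdo2 without AIN-76A C or D or LRD-5001 A (adjusted p 0.0555 to 0.131). Prodh, outside the rule for named genes, ended without AIN-76A B or C or LRD-5001 A, B, D or F (adjusted p 0.0596 to 0.239).

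**Figure D3:**
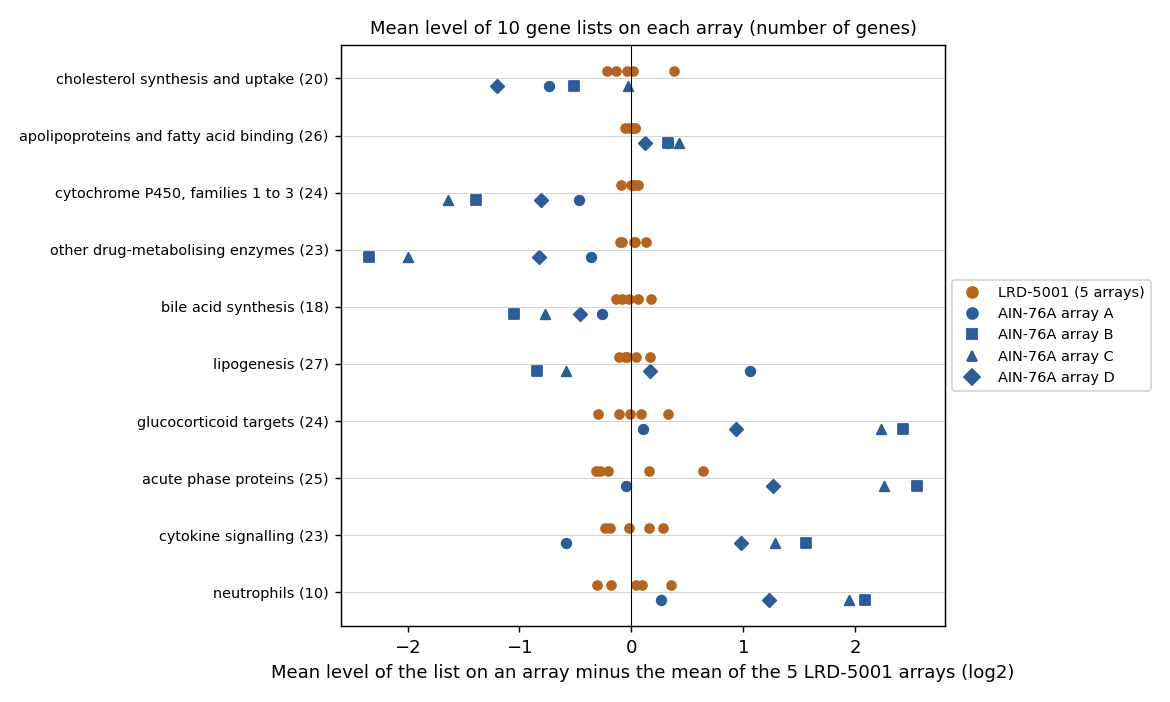
Mean level of 10 gene lists on each of the 9 arrays, as the log2 difference from the mean of the 5 LRD-5001 arrays (horizontal axis); orange circles are LRD-5001 arrays, blue marks are AIN-76A arrays A to D, and the number after a name counts its genes. Arrays B and C lie farthest from LRD-5001 in the drug-metabolising, glucocorticoid, acute phase and neutrophil lists, whereas array D lies lowest for cholesterol synthesis and array A highest for lipogenesis.

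Of 26 measured apolipoproteins and fatty acid binding proteins, 4 fell, Apoa4, Fabp5, Apoc2 and Apof, and none rose. Apoa4, an apolipoprotein of triglyceride-rich particles, measured 7.45, 6.94, 7.73, 7.93 and 8.22 on LRD-5001. On AIN-76A it measured 11.11, 12.03, 11.58 and 10.81. The groups lay more than 2 units apart at their nearest arrays, and the difference was -3.73 (SE 0.28, adjusted p = 7.74e-11). Fabp5, which carries fatty acids in the cytosol, measured 7.80, 8.46, 7.10, 9.65 and 7.88 on LRD-5001 and 10.39, 11.41, 10.41 and 9.94 on AIN-76A, with a difference of -2.36 (SE 0.42, adjusted p = 0.00123). Apoc2, the activator of lipoprotein lipase, measured 9.44, 9.56, 9.76, 9.21 and 9.77 on LRD-5001 and 10.46, 10.72, 10.87 and 10.64 on AIN-76A, with a difference of -1.12 (SE 0.14, adjusted p = 4.56e-06). Apof differed by -0.54 (SE 0.13, adjusted p = 0.0146), and its call ended without AIN-76A array B (adjusted p = 0.0685).

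Lipogenesis gave 2 rises, Mid1ip1 and Acss2, among 27 measured, and a median of -0.05; in controls the median was -0.63, at 10 ppb in water -1.14 and at 10 ppb in food -1.06. The mean level of the list ran from 7.73 to 8.00 on LRD-5001 and was 8.90, 7.0, 7.26 and 8.00 on AIN-76A arrays A to D, so array A lay above and B and C below all LRD-5001 arrays. Against arrays A and D alone, no gene of the list rose and 4 fell. The elongase Elovl6 measured 6.63, 6.72, 6.39, 6.93 and 7.12 on LRD-5001 and 9.49, 7.96, 7.07 and 7.48 on AIN-76A (difference -1.24, SE 0.39, adjusted p = 0.0886). Fatty acid synthase, Fasn, differed by -0.40 (adjusted p = 0.759). Mid1ip1 ended without AIN-76A B or C or LRD-5001 B (adjusted p = 0.12, 0.0708 and 0.0705). Acss2 was lost when any of the 9 arrays except AIN-76A A or D was left out (adjusted p 0.052 to 0.306).

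Fatty acid oxidation and targets of the receptor PPAR alpha gave 1 rise, Acaa1b, and 3 falls, Fgf21, Slc22a5 and Crat, among 31 measured. Fgf21, a fasting hormone of the liver, measured 2.77, 2.64, 3.10, 3.08 and 3.05 on LRD-5001 and 4.19, 3.41, 4.55 and 3.54 on AIN-76A, without overlap. Its difference was -0.99 (SE 0.27, adjusted p = 0.0423), and only the fit without AIN-76A D kept that call (adjusted p 0.0513 to 0.164 in the others). Crat, a carnitine acyltransferase, differed by -0.61 (SE 0.14, adjusted p = 0.0146), a call that ended without LRD-5001 array D (adjusted p = 0.0531). Acaa1b ended without AIN-76A B or C or LRD-5001 A, B, D or E (adjusted p 0.0537 to 0.22), and Slc22a5 without AIN-76A B or C or LRD-5001 B, D, E or F (adjusted p 0.0635 to 0.26).

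Cholesterol synthesis and uptake gave 7 rises among 20 measured and no fall, and all 20 differences were above 0, with a median of 0.71. Without AIN-76A array B 4 rose, without array C 7, and against arrays A and D alone 8. On LRD-5001 the list's mean level ran from 8.48 to 9.08. On AIN-76A arrays A to D it was 7.97, 8.19, 8.67 and 7.50, so array D, kept in the last count, was the lowest. Hmgcs1, which makes the precursor of mevalonate, measured 10.92, 11.04, 10.82, 11.31 and 11.70 on LRD-5001 and 10.17, 10.31, 10.61 and 9.72 on AIN-76A. The diets did not overlap, and the difference was 0.96 (SE 0.18, adjusted p = 0.00287). Mvk, mevalonate kinase, was higher by 1.02 (SE 0.22, adjusted p = 0.00957), a call that ended without AIN-76A B or D (adjusted p = 0.0685 and 0.059). Nsdhl, a later step, measured 9.39, 9.50, 9.21, 9.47 and 9.79 on LRD-5001 and 8.74, 8.93, 9.26 and 7.73 on AIN-76A, with a difference of 0.81 (SE 0.19, adjusted p = 0.0141) that ended without AIN-76A D (adjusted p = 0.101). The regulator Srebf2 differed by 0.01 (adjusted p = 0.987).

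The Hmgcs1 promoter is shown because it was the only one of 16 cholesterol gene windows that held the searched part of the sterol regulatory element, CACCCCAC, on either strand. The element binds SREBP proteins, and 2.58% of all 32851 windows held it. It was found in 3.37% of 14452 measured genes with a window. Among genes higher on LRD-5001 it was found in 8 of 333 (2.4%), and among genes lower in 1 of 119 (0.84%). The match, in capitals, began 136 bases before the start in the window chr13:119690101-119690350 (plus strand, RefSeq, GRCm38.p6).
Hmgcs1: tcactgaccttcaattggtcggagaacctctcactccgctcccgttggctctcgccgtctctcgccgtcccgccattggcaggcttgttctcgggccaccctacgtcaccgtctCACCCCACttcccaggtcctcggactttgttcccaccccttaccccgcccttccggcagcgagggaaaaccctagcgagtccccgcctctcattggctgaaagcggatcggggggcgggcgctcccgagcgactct
It overlapped no match to another searched motif.

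Bile acid synthesis gave 8 rises among 18 measured and no fall, with a median of 0.55. The count was 1 without AIN-76A array B, 5 without array C, and none against arrays A and D alone. Cyp7a1, which sets the rate of the classical pathway, measured 7.51, 7.82, 7.38, 7.96 and 8.14 on LRD-5001 and 6.97, 2.47, 2.95 and 6.95 on AIN-76A. Arrays A and D lay just below LRD-5001, and B and C far below. The difference was 2.92 (SE 0.64, adjusted p = 0.00914), and it ended without AIN-76A B or C (adjusted p = 0.103 and 0.0647). Akr1d1, a later step, was higher by 2.15 (SE 0.45, adjusted p = 0.00625), which ended without AIN-76A B (adjusted p = 0.0725).

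**Figure D4:**
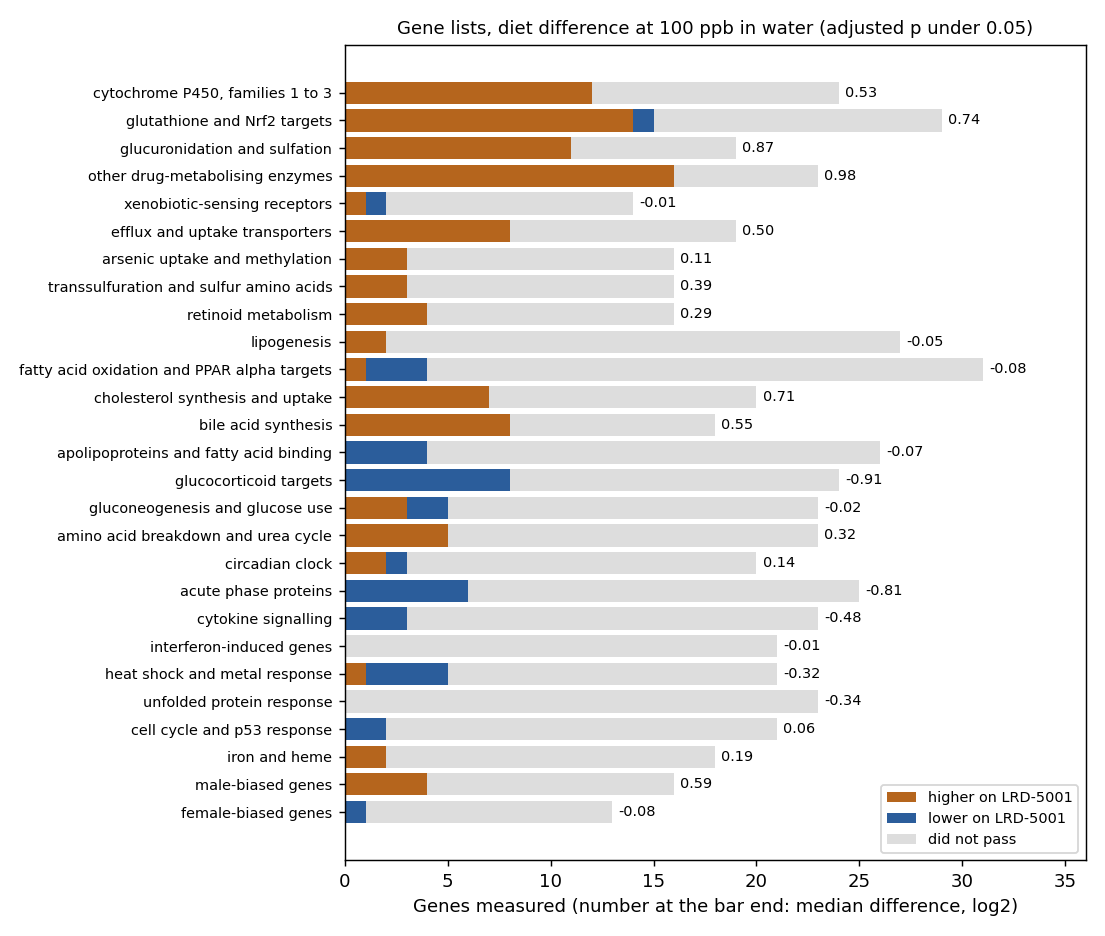
Number of measured genes (horizontal axis) of 27 pathway lists that were higher (orange) or lower (blue) on LRD-5001 or did not pass (grey) at 100 ppb in water; the number at a bar's end is the list's median difference (log2). Drug-metabolising lists hold most rises, and glucocorticoid targets and acute phase proteins most falls.

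Clock genes gave 2 rises, Dbp and Cry2, and 1 fall, Nfil3, among 20 measured. Dbp and Nfil3 encode opposing factors that bind the same D-box element, an activator and a repressor. Dbp measured 7.74, 7.88, 8.11, 7.98 and 7.22 on LRD-5001 and 5.29, 2.61, 3.34 and 4.85 on AIN-76A, with a difference of 3.76 (SE 0.75, adjusted p = 0.00435). Nfil3 measured 4.43, 5.14, 4.96, 4.60 and 5.2 on LRD-5001 and 5.98, 7.48, 7.55 and 7.39 on AIN-76A, with a difference of -2.23 (SE 0.25, adjusted p = 7.95e-07). Neither overlapped between the diets, and against AIN-76A arrays A and D alone Nfil3 stayed called (adjusted p = 0.00101) and Dbp did not (adjusted p = 0.127). Cry2 was called in no fit without AIN-76A B or D or LRD-5001 A, B, D or F (adjusted p 0.0886 to 0.273). The core activators Clock and Arntl differed by 0.19 (adjusted p = 0.847) and -0.84 (adjusted p = 0.0685). The time of day of tissue collection is not given in the sources used here.

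St3gal5 and St6gal1 add sialic acid to glycans, and they are 2 of the 12 largest falls without overlap. Other enzymes of this kind were not listed or counted. St3gal5 measured 5.81, 5.85, 5.69, 5.59 and 5.79 on LRD-5001 and 6.50, 8.24, 8.11 and 6.45 on AIN-76A, with a difference of -1.58 (SE 0.24, adjusted p = 0.000152). St6gal1 measured 7.52, 7.59, 7.39, 7.72 and 7.77 on LRD-5001 and 7.95, 10.28, 9.64 and 8.76 on AIN-76A, with a difference of -1.56 (SE 0.30, adjusted p = 0.00276). Neither overlapped between the diets, and arrays B and C of AIN-76A were the highest for both.

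All mice were male, and 4 of 16 measured male-biased genes rose, Hsd3b5, Cyp2u1, Cyp2d9 and Nudt7, while 1 of 13 female-biased genes, Cyp17a1, fell. Hsd3b5, a male-specific steroid enzyme, measured 11.15, 11.10, 10.91, 11.41 and 11.21 on LRD-5001 and 11, 3.78, 5.92 and 10.66 on AIN-76A. Arrays A and D lay at or near the LRD-5001 levels and B and C far below, for a difference of 3.32 (SE 0.72, adjusted p = 0.0082). It ended without AIN-76A B or C (adjusted p = 0.0773 and 0.0577), and Cyp2u1 without AIN-76A B (adjusted p = 0.146). Nudt7 and Cyp17a1 ended without AIN-76A B or C or any of 4 LRD-5001 arrays (A, B and D for both, F for Nudt7 and E for Cyp17a1; adjusted p 0.0669 to 0.266). Cyp2d9 ended without AIN-76A B, C or D or LRD-5001 A, B, D or E (adjusted p 0.0527 to 0.237).

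Markers of most other cells of the liver gave no call: none of 14 for Kupffer cells, 10 for T and NK cells, 8 for B and plasma cells, 12 for endothelium, 12 for stellate cells and fibroblasts and 5 for red cells. Over all genes 2.23% were called higher and 0.885% lower, shares at which lists this short would hold few calls. Many of these markers were dim. Above the arrays' mean upper quartile lay 0 of 10 for T and NK cells, 1 of 8 for B and plasma cells and 2 of 5 for red cells. For Kupffer cells 12 of 14 did, for endothelium 8 of 12 and for stellate cells and fibroblasts 7 of 12. Of 6 measured genes of MHC class II, 2 rose, H2-Aa and H2-Ab1, which present antigen. H2-Aa measured 8.29, 8.10, 8.27, 8.72 and 7.85 on LRD-5001 and 7.83, 5.18, 5.06 and 7.16 on AIN-76A, with a difference of 1.94 (SE 0.43, adjusted p = 0.0114). Without AIN-76A B or C the calls of H2-Aa (adjusted p = 0.103 and 0.0729) and H2-Ab1 (adjusted p = 0.0737 and 0.0655) ended.

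Of 8 bile duct markers 2 fell, Tff3 and Sox9. Tff3, a trefoil peptide of mucous epithelia, measured 4.79, 6.21, 4.79, 6.60 and 8.34 on LRD-5001 and 8.28, 10.60, 8.34 and 9.89 on AIN-76A, with a difference of -3.13 (SE 0.69, adjusted p = 0.00926) that ended without AIN-76A B (adjusted p = 0.0793). Sox9 ended without AIN-76A B or C or LRD-5001 D, E or F (adjusted p 0.0511 to 0.214), and the duct marker Cftr had a mean of 1.87 over the 9 arrays. Of 7 fat tissue markers Car3 and Pparg rose, while the fat-specific Adipoq had a mean of 1.94. Car3, which hepatocytes also express, was higher by 3.25 (SE 0.65, adjusted p = 0.00458) and ended without AIN-76A B (adjusted p = 0.0618); Pparg ended without AIN-76A B or LRD-5001 A or D (adjusted p 0.0562 to 0.0873). Of 8 pancreas markers 1 rose, Cela1, which was called only without AIN-76A A or D or with all 9 arrays (adjusted p 0.0526 to 0.22 in the other fits), and the pancreatic Cpa1 had a mean of 2.27. Markers of hepatocytes near the central vein gave 3 rises and 1 fall among 11, and those near the portal vein 3 rises among 8; without AIN-76A array B these were 1 rise and 2 rises. The part of these cells in the differences was not tested.

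The same diets were compared at the other 3 levels of arsenite on arrays that the 9 do not share. The diet difference was called for 256 probe sets (0.568%) in controls, 155 (0.344%) at 10 ppb in water and 133 (0.295%) at 10 ppb in food, each with 5 arrays a diet. Of the 924 probe sets called at 100 ppb, 88.7% had the same sign in controls, 78.6% at 10 ppb in water and 77.8% at 10 ppb in food, against 56.8%, 59.4% and 49.5% of all probe sets. Called in both with 1 sign were 142 with controls (15.4% of 924 and 55.5% of 256), 59 with 10 ppb in water (6.39% and 38.1%) and 58 with 10 ppb in food (6.28% and 43.6%). At none of the other levels were 775 (83.9%) called. For 92.3% of the 924 the difference was largest in size at 100 ppb, against 36.6% of all probe sets. Choosing probe sets by their call at 100 ppb favours this. The number of calls alone does not show that a gene's difference was larger at 100 ppb, which the next comparisons tested.

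**Figure D5:**
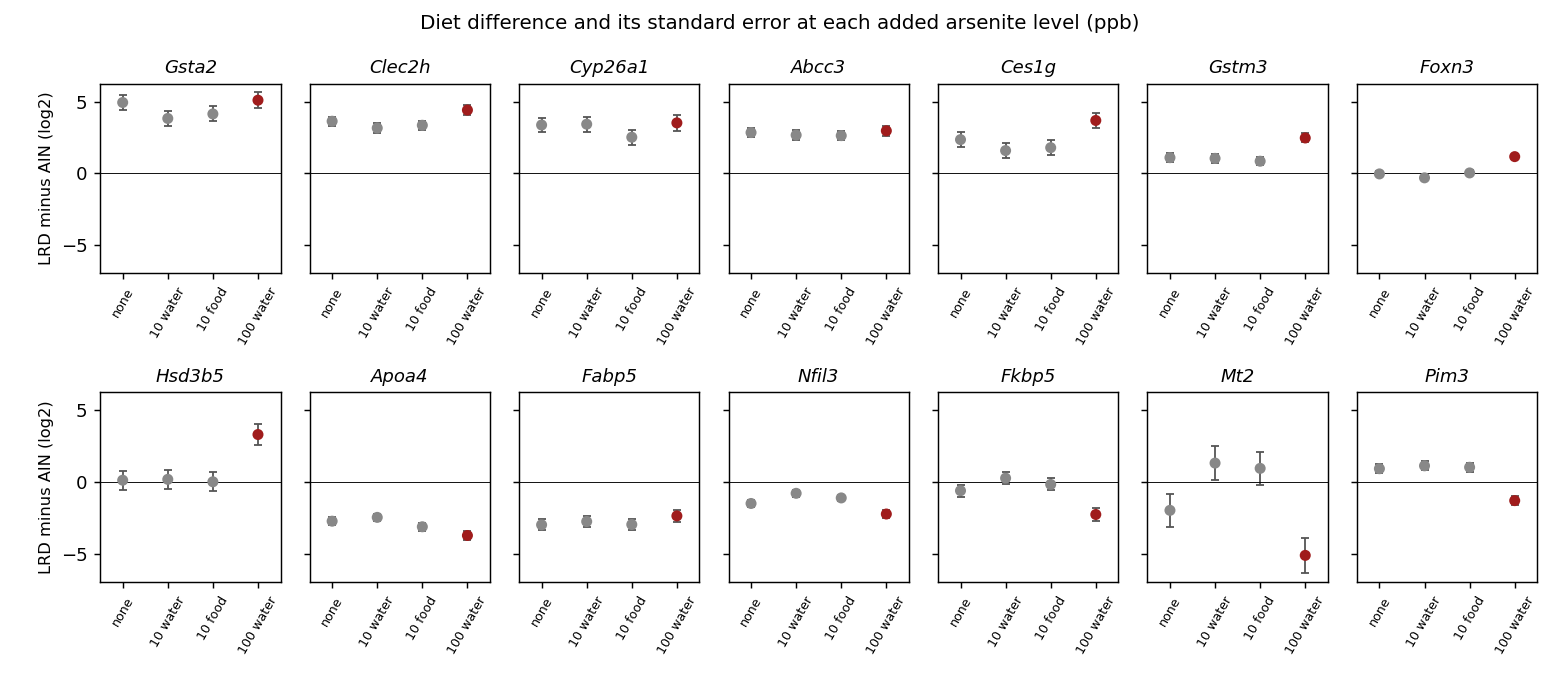
Diet difference (LRD-5001 minus AIN-76A, log2, vertical axis) with its SE for 14 genes at each added arsenite level: none, 10 ppb in water, 10 ppb in food and, in red, 100 ppb in water. Gsta2, Clec2h, Cyp26a1, Abcc3, Apoa4 and Fabp5 lie on 1 side of 0 at every level, whereas Hsd3b5, Foxn3, Fkbp5, Mt2 and Pim3 lie farthest from 0 at 100 ppb.

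The test of the diet difference at 100 ppb minus that in controls called no probe set (0%, against 2757 at an unadjusted p under 0.05). Without AIN-76A array A 62 were called, and against AIN-76A arrays A and D alone 13. The smallest p belonged to Slc16a5, whose difference was 0.40 in controls and -0.70 at 100 ppb, a change of -1.10 (SE 0.22, adjusted p = 0.326). Pim3, Foxn3, Rgs4 and Nfkb2 followed, with changes of -2.23, 1.21, -0.61 and -1.30 (adjusted p 0.326 to 0.456).

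Of the genes that stayed called whichever array was left out, some had like values in controls and others did not. The test above called none of them. Gsta2 differed by 4.94 in controls and 5.10 at 100 ppb, Abcc3 by 2.84 and 2.96, Cyp26a1 by 3.37 and 3.52, and Cth by 1.25 and 1.08. Apoa4 differed by -2.73 in controls and -3.73 at 100 ppb, and Fabp5 by -2.98 and -2.36. Foxn3 and St3gal5 also stayed called, with -0.04 and -0.30 in controls and 1.16 and -1.58 at 100 ppb. Some genes that varied among the AIN-76A arrays also had values that stood far apart. Mt2 differed by -1.98 in controls and -5.12 at 100 ppb, Fkbp5 by -0.60 and -2.26, Ces1f by 1.51 and 3.75 and Hsd3b5 by 0.13 and 3.32, none with an interaction that passed. Of these, Ces1f stayed called whichever array was left out. The test shares its arrays with both diet differences.

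Against the mean of the other 3 levels, 9 probe sets (0.02%) were called, 2 higher and 7 lower, with 3949 at an unadjusted p under 0.05. They were 2 probe sets of Pim3 and 1 each of Foxn3, Slc22a5, St3gal5, Slc11a2, Tpmt and Hacd3, with 1 that has no gene name here. Other probe sets of Pim3, Foxn3, Slc22a5, St3gal5 and Slc11a2 were not called in this contrast. Those called for Slc11a2, Tpmt and Hacd3 were not the brightest of their gene. Foxn3, a forkhead repressor, measured 7.28, 6.71, 6.74, 7.55 and 6.83 on LRD-5001 and 5.74, 5.95, 6.17 and 5.58 on AIN-76A, without overlap. Its diet difference was 1.16 at 100 ppb (SE 0.19, adjusted p = 0.000408) and -0.04, -0.32 and 0.03 at the other levels, a contrast of 1.27 (SE 0.21, adjusted p = 0.00809). Pim3, a serine kinase, measured 7.73, 7.47, 7.54, 8.47 and 7.75 on LRD-5001 and 8.10, 10.63, 9.21 and 8.41 on AIN-76A. Its diet difference was -1.30 at 100 ppb and 0.93, 1.13 and 1.03 at the other levels, a contrast of -2.33 (SE 0.38, adjusted p = 0.00809). Array E of LRD-5001 lay above AIN-76A arrays A and D, and the call of the diet difference itself ended without AIN-76A B or C or LRD-5001 A, B, D or F (adjusted p 0.0576 to 0.225). Slc22a5, the carnitine transporter, changed likewise, from 0.36, 1.24 and 0.94 to -0.98 (contrast -1.83, SE 0.30, adjusted p = 0.00809), and St3gal5 from -0.30, 0.12 and -0.28 to -1.58 (contrast -1.43, SE 0.27, adjusted p = 0.0391). No probe set was called without AIN-76A array B, 607 were called without array A, 93 without array D and 187 without array C of the AIN-76A controls. Leaving out 1 of 7 other arrays, B or D of either control group or A, B or D of LRD-5001 at 100 ppb, gave 5.

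Within a diet, 100 ppb was also set against controls. On AIN-76A 4 probe sets were called and 3996 passed at an unadjusted p under 0.05, and on LRD-5001 none was called and 1055 passed unadjusted. These 2 comparisons share their exposed arrays with the diet difference. Mt2 differed by 3.53 on AIN-76A (adjusted p = 0.334) and by 0.39 on LRD-5001 (adjusted p = 1.0), exposed minus control.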

How the data were processed

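Liver RNA was hybridised to Affymetrix mouse arrays, 1 array per mouse. The authors deposited log2 expression values per probe set; RMA, which corrects background, normalises between arrays and summarises probes, is named in the submitters' processing notes. Software, version and settings of that step were not given in the sources used here. Among 45101 probe sets 64 were controls, which were dropped, and 34945 others had 1 gene symbol. Group means over 8 groups and 39 five-week arrays went into limma 3.58.1 (R 4.3.3) with Benjamini-Hochberg adjustment over 45037 probe sets and no filter on low values. The method was tested on simulated data in which every group had the same spread for a probe set. That test could not show how the larger spread of the 4 AIN-76A arrays affects the calls. The members, gene lists and tests were chosen with earlier results of these data known. Genes named were the 12 largest rises and 12 largest falls among called genes without overlap, up to 4 per list by p, and the 5 leading genes of each other contrast. Mt1, As3mt, Mdh1, Apcs, Cd14, Ddit4, Prodh and the regulators and enzymes given as not passing were chosen after their values were seen. Alternatives varied the arrays fitted, normalisation, probe set filter, variance prior, array weights and replicate block. Probe sets of 1 gene can disagree, and among genes named those of Elovl6, Cyp2u1, Mdh1, Rgs4, Tsc22d3 and Pck1 differed in sign, with no opposite calls. For some genes, among them Mt1 and Ifi27, a dimmer probe set was called where the brightest was not.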

Additional observations from a re-analysis of the deposited data

Results flagged for a closer look

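In 118 of the genes named in the text, each diet group of 4 or 5 arrays was searched for an array far from the rest by Dixon's test. Of 236 groups 14 held one, where chance gives about 1 in 20. On AIN-76A, array A stood apart for Cxcl1 (4.65, nearest array 10.15), Mt1 (7.26, nearest 12.06) and Nfil3 (5.98, nearest 7.39), and array B for Abcc3 (3.96, nearest 4.82). On LRD-5001, array F stood apart for Cyp2c50 (11.68, nearest 12.08), Slco1a4 (6.17, nearest 6.88), Hspb8 (8.42, nearest 7.92) and Arntl (4.92, nearest 4.19). Array E did so for Akr1d1 (7.41, nearest 8.14), Pim3 (8.47, nearest 7.75) and Rarres2 (11.16, nearest 11.38). Array D did so for Il1rn (4.69, nearest 4.03), Aqp9 (10.34, nearest 10.52) and Clock (4.88, nearest 5.34).

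The diet difference at 100 ppb departed from the mean of the other 3 levels for 9 probe sets by limma's contrast. It was larger for Foxn3 (1.27) and a probe set of Tpmt (0.87). It was lower for both Pim3 probe sets (-2.33 and -2.55), Slc22a5 (-1.83), a probe set without a gene name here (-1.72), St3gal5 (-1.43), a probe set of Slc11a2 (-0.69) and a probe set of Hacd3 (-0.63).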

How the results depend on the processing

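The count of 924 probe sets was 647 with all 59 arrays in the fit, 38 with only the groups compared in the fit, 1409 with array weights, and 247 to 1789 with 1 array left out. Labels give replicate letters to both diets, but same-lettered arrays deviated together with correlations of 0.101, 0.0228 and 0.373 for A, B and D, so the letters were not taken as pairs; with the letter as a replicate block 549 were called. After the data were seen, the array of each of the 12 groups with the lowest score on the first principal component was set apart, LRD-5001 D and AIN-76A D among the 9. With these as a block 2043 were called, without them 2178, and against AIN-76A arrays A and D alone 545. The test of the diet difference at 100 ppb minus that in controls called 0 probe sets, 18 with array weights, 0 to 62 with 1 array left out, 26 without the arrays set apart and 13 against arrays A and D alone; the replicate block gave 0. The contrast with the other 3 levels called 9, and 0 with all 59 arrays, 29 after quantile normalisation, 31 with brighter probe sets only, 16 with a trended variance prior, 375 with array weights, 4 with the replicate block, 0 to 607 with 1 array left out, 196 with the arrays set apart as a block, 410 without them and 84 against arrays A and D alone. Among called single genes, Cd14 changed sign, to 0.0399 (adjusted p = 0.968) against arrays A and D alone. Some named genes that had not passed also changed sign in 1 or more settings, among them As3mt, Tat, G6pc and Keap1 against arrays A and D alone. Over the other settings chosen at the outset, values of single genes kept their side of the threshold 2832 times, lost it 451 times and gained it 56 times. Dim probe sets near background, with 4 and 5 arrays, limit what could be called.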
